A study of Mus musculus with 18 samples.

Results

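Long introns were taken as the intron retention events of the splicing table whose intron is longer than 1000 nucleotides (nt) and whose coverage score was sufficient in all 18 libraries, whatever their level of retention. The rule left 59935 introns in 9683 genes, out of 105593 covered introns of any length and 368707 covered events of all types. Retention was quantified with *vast-tools* as percent spliced in (PSI), the share of transcripts that keep the intron, from reads that cross its 2 exon-intron junctions against reads spliced across it. The median length was 2637 nt and the longest intron had 639386 nt. Introns just inside the length limit, of 1001 to 1010 nt (n = 287), had a median PSI of 0.611, against 0.71 for the 272 introns of 991 to 1000 nt just outside it.

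The cells were mouse embryonic fibroblasts (MEFs) of the genotype Collagen-OKSM, M2rtta+, in which doxycycline switches on the 4 reprogramming factors Oct4, Sox2, Klf4 and c-Myc (OSKM). All 9 groups carried these alleles and had 2 libraries each. In the knockdown dataset, non-infected MEFs at day 0 (NI_KD) were compared with cells at day 12 of doxycycline that had received a lentivirus with a scrambled shRNA (shSCR), 1 of 2 shRNAs against *Cpsf3* (shCPSF3#1, shCPSF3#2) or 1 of 2 against *Hnrnpul1* (shUL1#1, shUL1#2). In the overexpression dataset, non-infected MEFs at day 0 (NI_OE) were compared with cells at day 12 that had received a retrovirus, either the vector alone (Empty) or carrying the cDNA of TIA1 with a T7 tag (T7-TIA1). At infection, MEF medium was replaced by reprogramming medium with LIF. Infected cells were sorted for GFP and grown on irradiated feeders, so day 12 differs from day 0 in medium, LIF, doxycycline, virus, sorting and feeders together. The libraries are bulk polyA RNA, in which fewer cells of a type and less RNA per cell cannot be told apart. Nothing in the labels says whether replicates came from separate cultures, so p-values measure the spread between these samples. The titles gave the day; another label field gives the other day for shUL1#2 and NI_OE.

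A retained intron usually keeps a transcript in the nucleus or exposes it to nonsense-mediated decay, and retention is one way in which genes of RNA-binding proteins tune their own expression. Introns in mammals are mostly long, and the spliceosome recognises them through the exons at their ends: U1 snRNP binds the 5′ splice site, and SF1, U2AF and U2 snRNP bind the branch point, the pyrimidine tract and the 3′ splice site. CPSF3 is the endonuclease that cleaves pre-mRNA before polyadenylation, hnRNP UL1 is an hnRNP U-related RNA-binding protein, and TIA1 is an RNA-binding protein with affinity for uridine-rich stretches that takes part in the choice of 5′ splice sites. A long intron may also hold the start or the end of another transcript of its gene. Reads at only 1 of its junctions then raise its PSI, so introns were sorted by their reads at both junctions, summed over libraries.

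Splice site sequences of 5 introns that carried the results are shown, read from annotated GENCODE transcripts (mm10) that keep the intron. Each 5′ end runs from 6 exon bases into the intron and each 3′ end runs into 6 exon bases, in the direction of the transcript, and capitals mark the first 2 and the last 2 bases of the intron.
Tia1 intron 5, 5′ end: cacaagGTaattgtatcttcttaaac
Tia1 intron 5, 3′ end: tcactcccctccttcctttgtaAGatcatt
Rbm25 intron 9, 5′ end: cacaagGTagtattcttgatttttca
Rbm25 intron 9, 3′ end: aaaagtacttttgttggtttctAGaaactg
Srsf5 intron 6, 5′ end: tggcagGTttgttgaaatacagtttt
Srsf5 intron 6, 3′ end: ttaacataattgtcttgtgttaAGgatctc
Mapk8 intron 7, 5′ end: gggactGTatccttgtgctgctgcag
Mapk8 intron 7, 3′ end: tttttcttagctacttgataatAGatattg
0610037L13Rik intron 7, 5′ end: gaaaagGTgagacttggggagcctgt
0610037L13Rik intron 7, 3′ end: taatgctgccttcttatttcatAGgactgg
Such sequence was at hand for 1104 long introns, and 1091 of these (98.8%) began with GT and ended with AG. The hexamer GTAAGT stood at the 5′ splice site of 164 (14.9%) and GTGAGT at that of 139 (12.6%). Neither is complete at the 5′ splice site of the 5 introns shown. Among introns described below but not shown, GTGAGT is complete in *Srsf6* intron 2 and *Setdb1* intron 13. Of the 20 bases before the closing AG, a median of 15 were pyrimidines.

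Most long introns were removed almost completely. The median over introns of the mean PSI was 0.531 and the 90th percentile was 4.76. The median PSI over libraries was 0 for 18588 introns (31%), and 2115 had no retention read in any library. At the other end, 2182 introns (3.64%) had a median PSI of at least 10 and 183 of at least 50. Retention was lower in the longest introns: the median PSI was 0.642 for introns of up to 1500 nt (n = 12402), 0.605 between 3000 and 5000 nt (n = 10686), and 0.171 above 20000 nt (n = 3433). The share with a median PSI of at least 10 went from 4.66% to 0.786% between the shortest and the longest of these classes.

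Position and annotation went with the level. Introns that an annotated transcript keeps (n = 1106) had a median PSI of 2.83, and 20.2% of them were at 10 or above. Introns with an annotated transcript end inside (n = 8849) were at 1.39 and those with a start inside (n = 7924) at 1.13. The 42659 introns with no such annotation and no exon of their own gene inside were at 0.394, and 1.55% of them reached 10. Last introns (n = 4933) stood at 1.12, against 0.464 for first introns (n = 6225) and 0.484 for inner introns (n = 48501). The 217 introns in 3′ UTRs had a median PSI of 2.08, with 22.6% at 10 or above, and the 229 introns of non-coding transcripts had a median of 4.31. Of the 2182 introns at 10 or above, 1814 (83.1%) had reads at both junctions and 368 (16.9%) at essentially 1 junction only, where the other had more than 10 times fewer reads over all libraries. An intron counted as read at both junctions can still have uneven reads, or a change at 1 of them. Among all long introns, 1540 had reads at the downstream junction alone and 585 of these held an annotated transcript start, while 1434 had reads at the upstream junction alone and 570 of these held an annotated end.

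At the top of the range, PSI did not differ between libraries. *A530017D24Rik*, *Btnl10* and *D130017N08Rik* had introns at a PSI of 100 in all 18 libraries. The *A530017D24Rik* intron had 39174 reads at its downstream junction, summed over libraries, against 309 upstream. That of *Btnl10* had 845 downstream and 7572 upstream. Of the introns with a median PSI of at least 10, the longest lay in *RP24-377N13.3* (179278 nt), at 99.5 to 100 in all libraries with an exon of another gene inside. *Pde4d*, a cAMP phosphodiesterase, followed with an intron of 130896 nt, at 9.23 to 43.2 with 18 reads upstream and 399 downstream. *Pdgfd*, a growth factor gene, had an intron of 119571 nt at 17.7 to 28.8, with 0 reads upstream and 1205 downstream.

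Libraries held 25622306 to 29150928 junction reads over the long introns, with a median of 178 to 215 reads an intron. The score was other than N by the rule, and 57037 introns had a score of LOW or better in every library. Paired libraries of a group correlated in PSI at 0.945 to 0.956 across introns, which are not independent. The 2 Empty libraries differed most, by 3.03 times the squared counting error on average against 1.17 to 1.68 in the other 8 groups. *Cpsf3* was at 86.7 and 118 scaled CPM (read counts per library size, scaled between libraries) in shSCR and at 38.6 to 77.1 in the 4 shCPSF3 libraries, a log2 change of -1.0 ± 0.24 (SE, limma adjusted p = 0.0207). *Hnrnpul1* was at 156 and 185 in shSCR and at 38.7 to 85.8 in the 4 shUL1 libraries, a log2 change of -1.52 ± 0.23 (limma adjusted p = 0.0101). Of the 12 fibroblast markers listed, 10 were in the expression tables, and their summed level was 15652 to 19169 scaled CPM in NI_KD, 6739 to 7748 in shSCR, 13820 to 29852 in the knockdowns, 17437 to 38907 in NI_OE, 6790 to 7642 in Empty and 5622 to 6024 in T7-TIA1. Of 8 epithelial markers the knockdown table listed *Krt8* and *Krt18*, with a sum of 16 to 20.4 in NI_KD, 298 to 539 in shSCR and 31.7 to 221 in the knockdowns. Of 6 immune markers it listed *Cd68* and *Csf1r*, at 6.58 to 9.34 in NI_KD, 39.1 to 51.7 in shSCR and 33.5 to 165 in the knockdowns. Of 4 endothelial markers it listed *Tek*, at 1.15 to 1.51 in NI_KD and 18.3 to 143 at day 12. *Klf4*, which is also a transgene, was the only pluripotency marker of 11 listed. These sums move with the groups compared, and their part in the results on retention was not tested.

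The mean PSI of the long introns was 1.89 and 1.77 in NI_KD and 2.44 and 2.26 in shSCR. The 4 shCPSF3 libraries were at 1.94, 2.17, 1.94 and 2.27, and the 4 shUL1 libraries at 2.32, 2.32, 1.96 and 2.3. In the overexpression dataset NI_OE was at 1.96 and 1.87, Empty at 2.33 and 1.74, and T7-TIA1 at 2.03 and 1.98. The shSCR libraries lay above both NI_KD libraries and the other comparisons overlapped. The mean rose by 0.522 from NI_KD to shSCR, with an exact permutation p of 0.333 (two-sided, n = 2 and 2), which is the smallest that this design can give. The means of shCPSF3 and shUL1 differed from shSCR by -0.273 and -0.125 PSI (exact permutation p = 0.267 and 0.533, two-sided, n = 4 and 2, where the smallest possible is 0.133). For introns of up to 300 nt the same group means were 3.39 in NI_KD and 3.57 in shSCR. The gap between long introns and these short ones went from -1.56 to -1.22 without overlap of the libraries (exact permutation p = 0.333, two-sided, n = 2 and 2). It also differed without overlap by -0.168 PSI in shCPSF3 against shSCR (exact permutation p = 0.133, n = 4 and 2) and by -0.292 in T7-TIA1 against Empty (0.333, n = 2 and 2), in each case the smallest p possible, and with overlap by 0.0574 in Empty against NI_OE (0.667) and -0.0993 in shUL1 against shSCR (0.4).

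**Figure D1:**
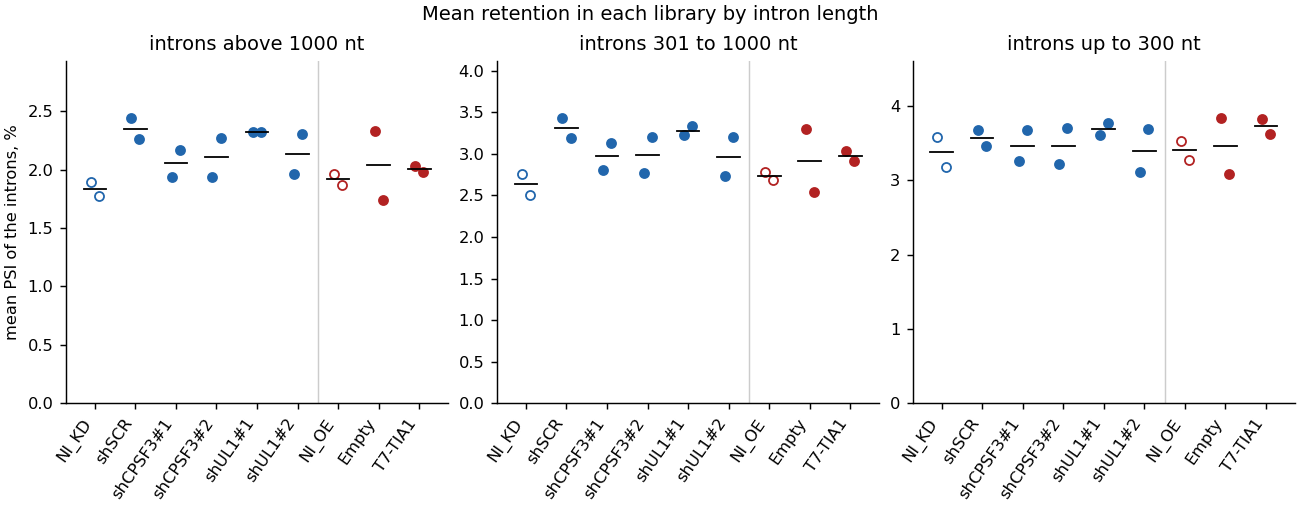
Mean PSI (percent) of introns in each library, in 3 panels for introns above 1000 nt, between 300 and 1000 nt and of up to 300 nt. Dots are libraries, open at day 0 and filled at day 12, blue for the knockdown and red for the overexpression dataset, and bars are group means. For the long introns, NI_KD lies at 1.77 and 1.89 and shSCR at 2.26 and 2.44, while the 2 Empty libraries, at 1.74 and 2.33, lie farthest apart of any pair.

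During reprogramming with the scrambled shRNA, long introns moved mostly towards retention. By the rule of the study, a difference of at least 10 PSI between group means with the libraries at least 5 apart, 513 introns (0.856%) were higher and 127 (0.212%) lower in shSCR than in NI_KD, against 0.711% and 0.44% of all events. A test on the reads (limma on the log2 ratio of inclusion to exclusion reads, adjusted p below 0.05 over all 142476 events tested) could be run for 31834 long introns (53.1%), those with at least 18 reads of both kinds summed over the 18 libraries. Of the introns tested, 7994 had a mean of under 2 inclusion reads a library. The test called 1469 higher (4.61%) and 195 lower (0.613%), against 3.93% and 1.66% of all events. The median log2 effect was 0.37 in the long introns and 0.07 in events other than introns. Introns between 300 and 1000 nt were close to the long ones, with a median effect of 0.36 and with 5.82% higher and 0.8% lower, and those of up to 300 nt had a median of 0.16, with 3.55% higher and 1.55% lower. After each library was centred on the median of its long introns, 684 were higher and 490 lower, so the share of higher calls went from 88.3% to 58.3%. Without 1 library at a time the read-level count of 1664 fell to between 327 (without NI_KD replicate 2) and 914 (without shSCR replicate 2).

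The same comparison in the overexpression dataset, Empty against NI_OE, gave fewer calls. By the PSI rule 167 introns (0.279%) were higher and 118 (0.197%) lower, against 0.309% and 0.292% of all events. The read-level test called 153 (0.481%) and 98 (0.308%), against 0.635% and 0.602%. With PSI in percent in place of the log2 ratio, 25 were higher and 32 lower. The median log2 effect was 0.06. Of the introns higher in shSCR by the PSI rule, 105 (20.5%) were higher in Empty too, which is 62.9% of those higher in Empty. For lower introns the overlap was 42, or 33.1% and 35.6% of the lists. Only 2 introns moved in opposite directions. A direct test of the difference between the changes in both datasets called 10 long introns, against 0.0232% of all events. Without Empty replicate 2 the read-level count rose from 251 to 603, and without Empty replicate 1 it was 32.

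Against shSCR, more long introns were lower than higher in both knockdowns. For shCPSF3 the PSI rule for dependent events, a difference of at least 10 at day 12 and a change by the rule above in at least 1 pair among day 0, control and knockdown for both shRNAs, gave 50 introns higher (0.0834%) and 197 lower (0.329%), against 0.239% and 0.329% of all events. The read-level test called 70 higher (0.22%) and 508 lower (1.6%), against 0.998% and 1.55%. After centring, 147 were higher and 323 lower, and the share of higher calls went from 12.1% to 31.3%. For shUL1 the PSI rule gave 49 higher (0.0818%) and 146 lower (0.244%), against 0.218% and 0.259% of all events. By reads 34 were higher (0.107%) and 141 lower (0.443%), against 0.574% and 0.678%. The median log2 effects were -0.19 for shCPSF3 and -0.08 for shUL1, and -0.19 and -0.11 in introns between 300 and 1000 nt. Both comparisons use the same 2 shSCR libraries, and without shSCR replicate 1 the read-level counts fell from 578 to 103 and from 175 to 16. A direct test of shCPSF3 against shUL1 (limma, adjusted over all events) called 0 introns, with 1559 at an unadjusted p below 0.05 and a smallest adjusted p of 0.459.

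Overexpression of TIA1 changed few long introns at this depth. The PSI rule gave 52 higher (0.0868%) and 47 lower (0.0784%) in T7-TIA1 than in Empty, against 0.122% and 0.159% of all events. The read-level test called 2 higher (0.00628%) and 6 lower (0.0188%), against 0.0154% and 0.0449%. The 6 lower introns are all in *Tia1* itself.

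**Figure D2:**
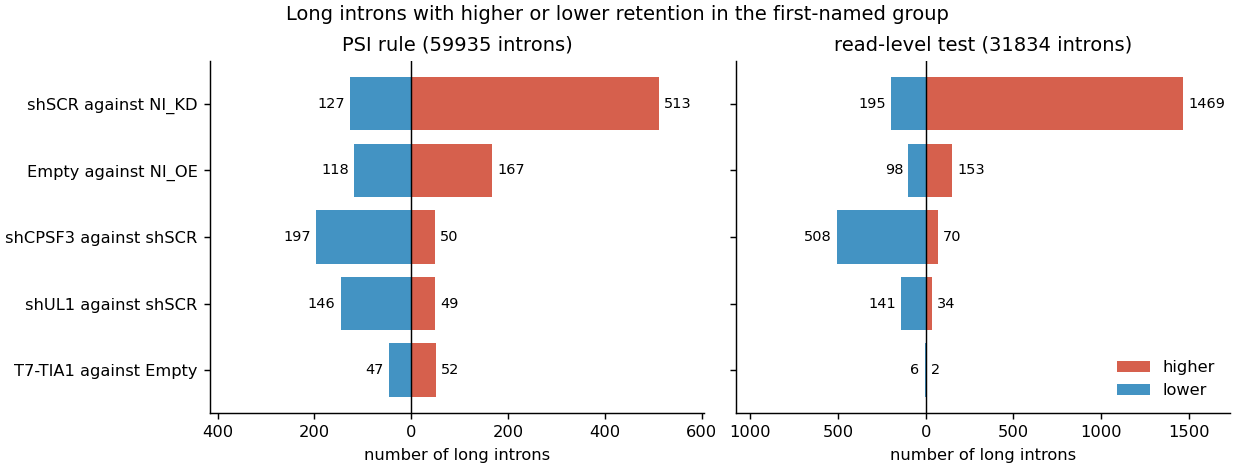
Number of long introns higher and lower in each of the 5 comparisons, by the PSI rule over 59935 introns and by the read-level test over the 31834 introns tested. The bars start at 0. Higher calls outnumber lower ones in shSCR against NI_KD (513 and 127, and 1469 and 195), and lower calls outnumber higher ones in both knockdowns.

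Genes of splicing factors and regulators made up a listed set of 116 genes, of which 106 had long introns, 632 in all. Their median PSI was 0.663, and 61 (9.65%) were at 10 or above, against 3.64% of all long introns. In shSCR against NI_KD, 26 of the 632 were higher and 2 lower by the PSI rule, against 513 (0.856%) and 127 (0.212%) of all 59935 long introns. Of the 459 tested on reads, 56 (12.2%) were higher and 8 (1.74%) lower, against 4.61% and 0.613% of all long introns tested. In Empty against NI_OE 9 (1.96%) were higher and 2 (0.436%) lower on reads, against 0.481% and 0.308%. In shCPSF3 against shSCR 3 (0.654%) were higher and 17 (3.7%) lower, against 0.22% and 1.6%, and in shUL1 3 (0.654%) and 5 (1.09%), against 0.107% and 0.443%. The median log2 effect of the list was near that of all long introns. It was 0.41 in shSCR, 0.03 in Empty, -0.12 in shCPSF3 and -0.05 in shUL1, against 0.37, 0.06, -0.19 and -0.08. Among all long introns, calls of higher retention in shSCR rose with inclusion reads, from 0.55% to 17.8% between the extreme classes. The list was not matched for reads. Among the 104 host genes of the list in the knockdown expression table, 18 rose and 14 fell from NI_KD to shSCR, against 1804 and 1888 of all 8398 (44% changed).

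Within this list, the largest change in PSI from NI_KD to shSCR was in a 3′ UTR intron of *Hnrnpa2b1*, which encodes hnRNP A2/B1, an RNA-binding protein of splicing and mRNA transport. The intron (chr6:51461434-51463410 of mm10, minus strand, 1977 nt, the last of 9) had a PSI of 24 and 23.3 in NI_KD and 81.3 and 78.1 in shSCR. It was at 45.7, 45.1, 40.9 and 54.9 in the shCPSF3 libraries and at 60.9, 65, 36.2 and 46.6 in the shUL1 libraries. In the other dataset it was at 30.7 and 36.9 in NI_OE, 68.9 and 54.1 in Empty and 57.5 and 61.5 in T7-TIA1. Neither day 0 group overlapped its day 12 control, and no knockdown library reached shSCR. The log2 effects on reads were 3.66 ± 0.30 for shSCR (limma adjusted p = 7e-07), 1.67 ± 0.30 for Empty (0.00818), -2.17 ± 0.26 for shCPSF3 (0.000134) and -1.84 ± 0.26 for shUL1 (0.00107). Reads spliced across it went from 2833 and 3242 in NI_KD to 244 and 384 in shSCR, whereas reads over its upstream junction were 1205 and 1290, and 1488 and 1907. The gene was at 1547 and 1677 scaled CPM in NI_KD and 892 and 1221 in shSCR (log2 change -0.63 ± 0.23, limma adjusted p = 0.0579).

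*Tia1* and *Tial1*, paralogues that both bind U-rich RNA, each had long introns that were more retained in shSCR than in NI_KD. *Tia1* intron 5 (chr6:86419134-86420323, plus strand, 1190 nt) was at 29.1 and 28.7 in NI_KD and at 66.2 and 69.1 in shSCR. It was at 55.6 to 64.7 in shCPSF3 and 64.3 to 69.2 in shUL1. In the overexpression dataset it was at 34.7 and 41 in NI_OE and 64.3 and 54.9 in Empty. Day 0 and day 12 controls did not overlap in either dataset, with a log2 effect of 2.35 ± 0.31 for shSCR (limma adjusted p = 0.000115) and 1.27 ± 0.29 for Empty (0.036). The next intron downstream that qualifies, *Tia1* intron 6 (chr6:86420412-86424344, 3933 nt), was at 17.1 and 14.1 in NI_KD, 51.2 and 49.8 in shSCR, 20.4 to 35.7 in shCPSF3 and 19.2 to 31 in shUL1. All 8 knockdown libraries lay below shSCR at intron 6, by -1.54 ± 0.36 for shCPSF3 (limma adjusted p = 0.0236) and -1.71 ± 0.35 for shUL1 (0.0179), whereas at intron 5 the effects were -0.54 ± 0.26 and 0.01 ± 0.26 and did not pass. Expression of *Tia1* was 63.7 and 67.6 scaled CPM in NI_KD, 69.7 and 66.7 in shSCR, 82.4 to 93.9 in shCPSF3 and 86.3 to 113 in shUL1. It rose in both knockdowns against shSCR (log2 change 0.36 ± 0.10 and 0.54 ± 0.10, limma adjusted p = 0.0335 and 0.0166). In *Tial1*, intron 6 (1850 nt) was at 22.9 and 22.5 in NI_KD and 52.8 and 45.9 in shSCR (log2 effect 1.72 ± 0.31, limma adjusted p = 0.00228), and at 31.6 and 35.7 in NI_OE and 42.7 and 31.5 in Empty (0.21 ± 0.31, adjusted p = 0.798).

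In T7-TIA1, PSI of *Tia1* intron 5 was 1.16 and 2.31, the largest fall in that comparison (log2 effect -6.44 ± 0.29, limma adjusted p = 5.15e-11). Spliced reads were 71 and 92 in Empty and 5935 and 4466 in T7-TIA1, and reads over the upstream junction were 80 and 76 in Empty and 47 and 53 in T7-TIA1. The other 5 long introns of *Tia1* were called as well, with log2 effects of -4.90 (intron 1), -6.00 (intron 2), -5.86 (intron 3), -6.10 (intron 6) and -5.09 (intron 12). *Tia1* expression was 85.6 and 77 scaled CPM in Empty and 613 and 469 in T7-TIA1, a log2 change of 2.71 ± 0.21 that did not pass (limma adjusted p = 0.222, unadjusted 2.35e-05). A cDNA has no introns, and the reads of the construct and of the gene are not separated in these counts.

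Several core factors and SR proteins, which bind exonic enhancers, had introns that rose from NI_KD to shSCR. *Sfpq* intron 9 (2308 nt), in the gene of a paraspeckle and splicing protein, went from 12.2 and 9.49 to 35.2 and 27.1 (log2 effect 1.89 ± 0.29, limma adjusted p = 0.000535). *Sf3b1* intron 4 (1813 nt), in the gene of the U2 snRNP subunit at the branch point, went from 13.7 and 13 to 37 and 26 (1.55 ± 0.25, adjusted p = 0.000891). Neither overlapped between the groups. A 3′ UTR intron of *Srsf2* (1059 nt, the first of 2 in its transcript, with an annotated transcript start inside) went from 7.72 and 7.78 to 22 and 15.4. *Srsf6* intron 2 (1283 nt) went from 12.5 and 11.2 to 32 and 29.2, and *Srsf11* intron 3 (3774 nt) from 25.8 and 24.5 to 50.7 and 41.3. *Hnrnpdl* intron 7 (1119 nt), in its 3′ UTR, went from 25.6 and 23.6 to 59.2 and 49.5. For these 4 introns the limma adjusted p was 0.00122, 0.000109, 0.00528 and 0.000947. Reads of *Srsf6* lay mostly at the downstream junction, 365 and 323 in NI_KD and 556 and 617 in shSCR against 42 and 39, and 69 and 57, upstream. *Snrnp70*, which encodes the U1-70K protein, rose at intron 7 (2985 nt) from 16.9 and 12.9 to 32.3 and 22.3 (adjusted p = 0.0264), with 636 and 490 downstream junction reads in NI_KD and 1067 and 848 in shSCR, against 237 and 176, and 212 and 218, upstream. In Empty against NI_OE *Snrnp70* passed as well (log2 effect 1.22 ± 0.28, limma adjusted p = 0.038). The other 6 introns did not, with log2 effects of 0.71 for *Sfpq* (limma adjusted p = 0.238), 0.55 for *Sf3b1* (0.298), 0.05 for *Srsf2* (0.944), -0.02 for *Srsf6* (0.979), 0.28 for *Srsf11* (0.67) and -0.26 for *Hnrnpdl* (0.733). *Srsf10* intron 2 was past the PSI rule from NI_KD to shSCR, from 25.9 and 22.4 to 34.4 and 34.5, and not past the read-level test (limma adjusted p = 0.187).

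In the knockdowns the values of these introns differed from one gene to the next. *Rbm25* intron 9 (chr12:83660679-83663978, plus strand, 3300 nt), in the gene of a U1-associated splicing regulator, was at 16 and 15.5 in NI_KD, 38.2 and 32.4 in shSCR, 12 to 16.4 in shCPSF3 and 11.5 to 14.9 in shUL1. Reads at its downstream junction were 197 and 206 in NI_KD, 430 and 439 in shSCR and 117 to 240 in the knockdowns. Upstream reads were 87 and 83 in NI_KD, 81 and 103 in shSCR and 51 to 98 in the knockdowns. Spliced reads were 746 and 789 in NI_KD, 413 and 565 in shSCR and 444 to 986 in the knockdowns. In shSCR, then, downstream reads rose in number, upstream reads stayed and spliced reads fell. An annotated transcript start lies inside the intron. In PSI both knockdowns lay at or near the day 0 level, with log2 effects of -1.74 ± 0.23 for shCPSF3 (limma adjusted p = 0.000234) and -1.87 ± 0.23 for shUL1 (0.000205). In the other dataset this intron was at 14.9 and 16.8 in NI_OE and 20.8 and 13.2 in Empty, which overlap. *Sfpq* intron 9 was at 18 to 19.3 in shCPSF3 (log2 effect -0.98 ± 0.25, limma adjusted p = 0.0384) and 14.8 to 20.3 in shUL1 (-0.98 ± 0.25, adjusted p = 0.0564). *Srsf5* intron 6 (chr12:80947866-80949094, plus strand, 1229 nt) was at 10.2 and 8.9 in NI_KD and 24.5 and 20 in shSCR. It was no lower in the knockdowns, at 27 to 34.8 in shCPSF3 and 27.1 to 29.5 in shUL1, and these differences did not pass (adjusted p = 0.194 and 0.303). *Srsf11* intron 3 was at 42 to 52.5 in shCPSF3 (adjusted p = 0.83).

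*Clk1* and *Clk4* encode kinases that phosphorylate SR proteins. *Clk1* intron 7 (2328 nt) fell from 48.8 and 36.8 in NI_KD to 18.4 and 14.5 in shSCR (log2 effect -1.92 ± 0.36, limma adjusted p = 0.0033), with reads at both junctions, while the gene rose by 1.42 ± 0.16 on the log2 scale (limma adjusted p = 0.000354). In the overexpression dataset *Clk1* was at 22.8 and 19.1 in NI_OE and 35.5 and 19 in Empty and did not pass. *Clk4* intron 3 (1055 nt) was at 21.3 and 19 in NI_KD and 21.3 and 19.5 in shSCR (log2 effect 0.02 ± 0.28, limma adjusted p = 0.979). It was at 28.1 to 36 in the 4 shCPSF3 libraries and 27.4 to 34.9 in the 4 shUL1 libraries, all above shSCR and past the PSI rule, but not past the read-level test (limma adjusted p = 0.0605 and 0.108).

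**Figure D3:**
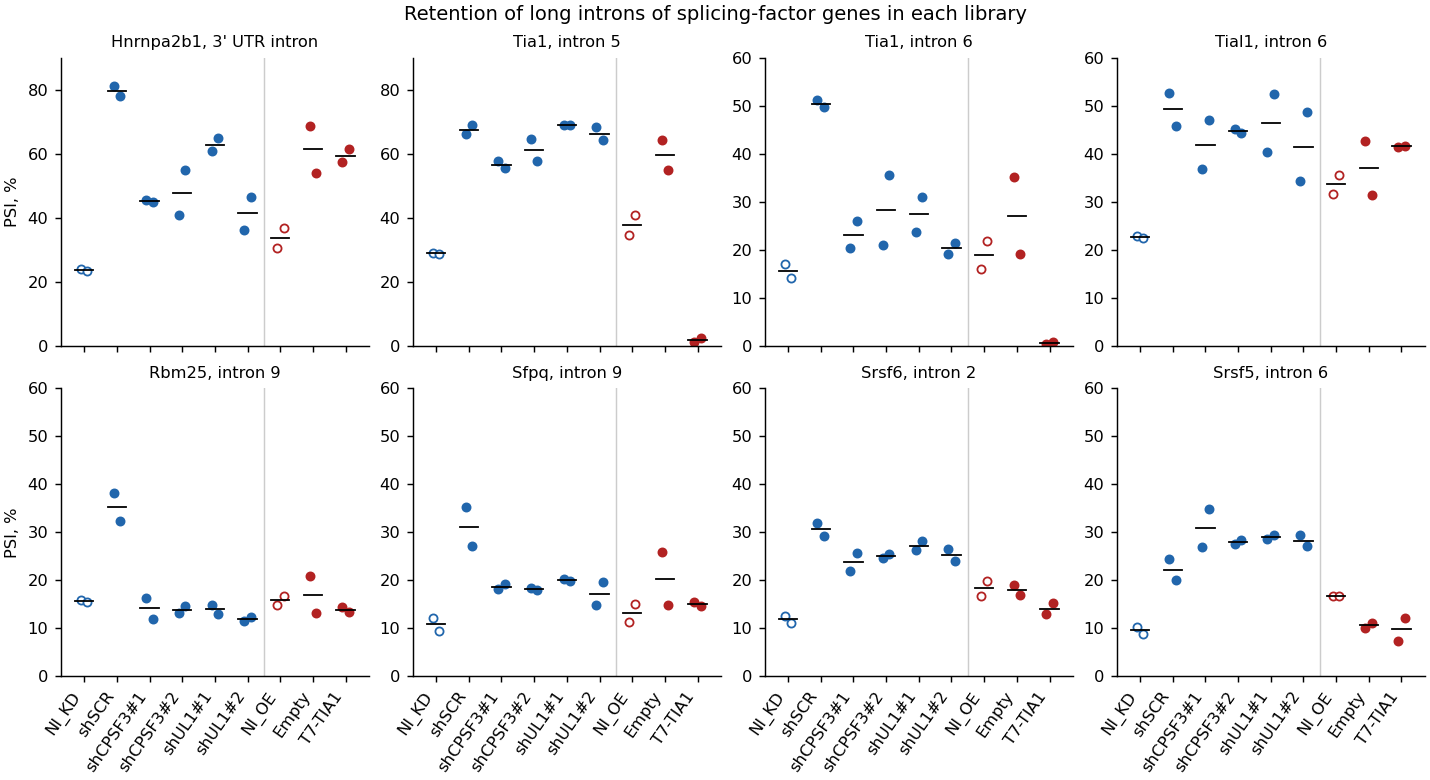
PSI (percent) in each of the 18 libraries for 8 long introns of RNA-binding protein genes, namely the 3′ UTR intron of Hnrnpa2b1, Tia1 introns 5 and 6, Tial1 intron 6, Rbm25 intron 9, Sfpq intron 9, Srsf6 intron 2 and Srsf5 intron 6. Each dot is a library, open at day 0 and filled at day 12, lines are group means, and the y axis reaches further in the first 2 panels. Rbm25 is highest in shSCR (38.2 and 32.4), Srsf5 stays high in the knockdowns (27 to 34.8), and both Tia1 introns are near 0 in T7-TIA1.

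For introns of *Luc7l2*, *Sf1* and *Srpk2*, PSI rested on 1 junction. *Luc7l2* intron 1 (18601 nt) went from 36.2 and 26.3 to 74.4 and 76, with 6 reads over its upstream junction and 6274 over its downstream junction in all libraries. The last intron of *Sf1*, the branch point binding protein, went from 50.1 and 55.4 to 67.7 and 71.2 with 72 and 13655 such reads. *Srpk2* intron 2 (110454 nt) fell from 24.6 and 26.3 to 1.9 and 2.22 with 176 and 1. *Tra2a* intron 1 (11322 nt) was at 9.45 and 7.44, and 29 and 27.1, with 296 and 5264. In the splicing list, 4 of the 26 introns higher in shSCR by the PSI rule had reads at 1 junction.

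The host genes of the listed cleavage, polyadenylation and Integrator factors, which include the partners of CPSF3, had 316 long introns. By the PSI rule 0 of these moved in shSCR, where 0.856% of all long introns were higher and 0.212% lower, and 0 in shCPSF3, shUL1 or T7-TIA1. In Empty 1 was lower, against 0.197% of all long introns. It lies in *Wdr33* and was at 28.6 and 35.9 in NI_OE and 19.3 and 18.6 in Empty, with 3047 upstream and 164 downstream reads in all libraries (limma adjusted p = 0.0899 on reads). On reads 10 of 190 (5.26%) were higher in shSCR, near the 4.61% of all long introns tested, and 1 was higher and 4 (2.11%) lower in shCPSF3, against 0.22% and 1.6%. *Cpsf3* itself had introns at low levels. Its intron 5 (1439 nt) was at 3.1 and 3.12 in NI_KD, 1.74 and 1.35 in shSCR, 6.6, 5.63, 7.49 and 4.47 in shCPSF3 and 2.86 to 4.51 in shUL1. All 4 shCPSF3 libraries lay above NI_KD and shSCR, and the lowest of them just below the highest shUL1 library (log2 effect against shSCR 1.95 ± 0.32, limma adjusted p = 0.00215). Spliced reads there were 191 to 460 in shCPSF3 against 535 and 731 in shSCR, and upstream junction reads 9 to 15 against 6 and 7. *Hnrnpul1* intron 1, in the 5′ UTR (3456 nt), was at 58.6 to 75.6 in all 18 libraries, also where the gene was knocked down (59.4 to 65.2 in shUL1).

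Extracellular matrix and adhesion genes carried 994 long introns with a median PSI of 0.124, and cytoskeleton genes 740 with a median of 0.183, both below the 0.531 of all long introns. By the PSI rule 1 intron of each list was higher and 1 lower in shSCR, against 513 (0.856%) and 127 (0.212%) of all 59935 long introns. On reads, 34 of 466 matrix introns (7.3%) and 34 of 333 cytoskeleton introns (10.2%) were higher in shSCR, against 4.61% of all long introns tested, and 4 (0.858%) and 2 (0.601%) lower, against 0.613%. Of their host genes 37 of 80 and 47 of 68 fell and 7 and 3 rose, against 1888 falling and 1804 rising of all 8398 host genes. In shCPSF3, 26 of the 466 matrix introns (5.58%) were lower and 0 higher (adjusted p below 0.05, limma), against 1.6% and 0.22%, and 33 of 80 host genes rose, against 1403 of 8398. In shUL1, 10 matrix introns (2.15%) were lower and 0 higher, against 0.443% and 0.107%, and 20 of 80 host genes rose, against 598 of 8398. Of the cytoskeleton introns 5 (1.5%) were lower and 0 higher in shCPSF3, and 1 (0.3%) was lower and 2 (0.601%) higher in shUL1. In Empty 7 matrix (1.5%) and 8 cytoskeleton introns (2.4%) were higher, against 0.481%, with 50 of 79 and 43 of 67 host genes falling, against 2052 of 8485. *Tpm1*, a tropomyosin of actin filaments, had the second smallest p among introns higher in shSCR. Its intron 1 (1107 nt) was at 0.18 and 0.16 in NI_KD and 2.48 and 1.2 in shSCR (log2 effect 3.44 ± 0.34, limma adjusted p = 7.2e-06). Spliced reads went from 28921 and 28134 to 4223 and 2830, upstream junction reads from 18 and 34 to 24 and 16, and expression fell by 2.41 on the log2 scale. *Myl6*, a myosin light chain, reached higher levels, with intron 5 (1025 nt) at 6.09 and 7.36 in NI_KD and 25.2 and 18.2 in shSCR (adjusted p = 0.000259). *Col16a1* intron 48 (2501 nt) was at 16.5 and 12.9 in NI_KD, 29.5 and 25.9 in shSCR (limma adjusted p = 0.0338) and 10.7 to 19.4 in shCPSF3. In the other dataset *Col16a1* lay the other way without overlap, at 19.1 and 21.1 in NI_OE and 13.9 and 10 in Empty, and did not pass (-0.76 ± 0.37, adjusted p = 0.33). For *Tpm1* the effect in Empty was 2.21 ± 0.37 (adjusted p = 0.00414) and for *Myl6* 0.80 ± 0.28 (0.158). The fibroblast marker sum given above moves with both lists, and its part was not tested.

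In the chromatin list (1094 introns), 14 of 526 tested introns (2.66%) were higher and 11 (2.09%) lower in shSCR on reads, against 4.61% and 0.613% of all long introns tested, with a median log2 effect of 0.02 against 0.37. Of 95 listed host genes 36 rose and 11 fell, against 1804 and 1888 of all 8398. *Ogt*, the O-GlcNAc transferase, had intron 5 (3415 nt) at 56 and 49 in NI_KD, 80.3 and 72.7 in shSCR and 56.4 to 65.1 in shCPSF3 (log2 effects 1.57 ± 0.34 and -1.09 ± 0.29, limma adjusted p = 0.00832 and 0.0432). The *Ogt* gene rose by 1.74 ± 0.14 on the log2 scale in shSCR. *Setdb1*, an H3K9 methyltransferase gene, had intron 13 (1080 nt) at 17.3 and 16.3, and 30.9 and 28.2 (adjusted p = 0.0236). Neither passed in Empty against NI_OE, where *Setdb1* was at 24.3 and 18.8, and 25.2 and 19.1 (log2 effect 0.04, limma adjusted p = 0.968), and *Ogt* at 67.7 and 58.1, and 76.6 and 60.2 (0.39, 0.615). Introns of *Brd1* and *Setd5* were also higher by the PSI rule and those of *Atrx*, *Kdm2b* and *Kmt2c* lower, those of *Brd1* and *Atrx* with reads mostly at the upstream junction (790 against 21, and 1279 against 2). In the cell cycle list (607 introns), 21 of 334 (6.29%) were higher and 1 (0.299%) lower on reads, against the same 4.61% and 0.613%. *Kif23* and *Prc1*, which act at the central spindle, had introns at 6.04 and 3.61, and 5.86 and 4.32, in NI_KD and at 20 and 14.9, and 17 and 16.3, in shSCR (adjusted p = 0.000544 and 0.00229). *Mdm4*, an inhibitor of p53, had intron 6 (4415 nt) at 12.8 and 14.3 in NI_KD and 34.7 and 41.2 in shSCR (adjusted p = 0.000748), while the gene rose by 2.00 ± 0.13 on the log2 scale. In Empty against NI_OE *Mdm4* was at 22.9 and 24, and 23.9 and 29.4 (log2 effect 0.23, limma adjusted p = 0.755), where the gene rose by 1.30 ± 0.30 (adjusted p = 0.0178). *Kif23* and *Prc1* did not pass there either (0.80 and 0.64, adjusted p = 0.221 and 0.385). Of 76 host genes of the cell cycle list 5 rose and 5 fell in shSCR. The orders of these lists by calls are descriptions, and their differences from other long introns were not tested.

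Outside the lists, the introns with the largest PSI changes and reads at both junctions were few. In shSCR against NI_KD, *Amn1* intron 1 (3111 nt) went from 7.14 and 7.32 to 61.9 and 51.2, on 15 to 64 reads a library, and *Phka2* intron 6 (1110 nt), in the gene of a phosphorylase kinase subunit, from 21 and 10.7 to 67.5 and 57.7. In Empty against NI_OE *Phka2* passed (log2 effect 2.42 ± 0.52, limma adjusted p = 0.0262) and *Amn1* did not (0.47 ± 0.59, 0.753). *Wsb1* intron 5 (2306 nt), in the gene of a ubiquitin ligase subunit, went from 21.2 and 23.6 to 68.4 and 68.5 (log2 effect 2.90 ± 0.29, limma adjusted p = 8.32e-06). Downstream junction reads of *Wsb1* went from 306 and 383 to 954 and 967. Upstream reads were 119 and 136, and 92 and 113, while spliced reads fell from 788 and 841 to 242 and 248. *Mir22hg*, the host transcript of a microRNA, fell at intron 2 (1449 nt) in both datasets, from 75.3 and 84 to 46 and 40.5 in shSCR and from 79.6 and 78.8 to 49.8 and 43.1 in Empty (log2 effects -2.37 ± 0.27 and -2.12 ± 0.27, limma adjusted p = 2.56e-05 and 0.000385).

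In the knockdowns, *0610037L13Rik* intron 7 (chr4:107894939-107896870, plus strand, 1932 nt) was at 13.9 and 12.9 in NI_KD, 51.4 and 40.2 in shSCR, 13.7 to 17.1 in shCPSF3 and 13.5 to 23.1 in shUL1. It passed in both knockdowns, with log2 effects of -2.21 and -2.09 (limma adjusted p = 0.00014 and 0.000377), and no knockdown library reached shSCR. In NI_OE it was at 19 and 10.5 and in Empty at 20.9 and 16.3, which overlap. *Mapk8*, which encodes the kinase JNK1, moved the other way at intron 7 (chr14:33388983-33390672, minus strand, 1690 nt), at 67.4 and 73.5 in NI_KD, 35.5 and 35.7 in shSCR, 58 to 77.4 in shCPSF3 and 54.9 to 81.7 in shUL1. It passed in shSCR (log2 effect -1.99 ± 0.49, limma adjusted p = 0.0196) and in shCPSF3 (1.91 ± 0.44, 0.0227) but not in shUL1 (1.60 ± 0.46, 0.0907), on 25 to 93 reads a library. It was at 66.5 and 82.9 in NI_OE and 76.9 and 74.8 in Empty. *Abcc5*, an ABC transporter gene, had intron 5 (4526 nt) at 27.3 and 31.5 in shSCR, 54.9 to 68 in shCPSF3 and 54.8 to 64.1 in shUL1 (log2 effects 1.95 ± 0.28 and 1.78 ± 0.28, limma adjusted p = 0.00073 and 0.00274). *Wipi1*, an autophagy gene, had intron 12 at 18.8 and 19.7 in shSCR, 35.1 to 38.1 in shCPSF3 and 28.6 to 33.3 in shUL1. It passed in both knockdowns (1.25 ± 0.19 and 0.96 ± 0.19, limma adjusted p = 0.00125 and 0.0145), with 2043 upstream and 5649 downstream reads in all libraries. For T7-TIA1, the 2 introns called higher on reads were in *Tmem167* (0.49 and 0.48 in Empty, 3.03 and 2.49 in T7-TIA1) and *Rgs12*, a regulator of G protein signalling (6.75 and 9.31, and 48.2 and 24.6). *Rgs12* had 3 upstream and 229 downstream junction reads in all libraries. *Tmem167* reads were also mostly downstream, 10 in both Empty libraries and 59 and 45 in T7-TIA1, against 0 and 1, and 2 and 6, upstream.

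Several of the largest PSI changes from NI_KD to shSCR were in introns with reads mostly at 1 end. *Klhl13*, a ubiquitin ligase adaptor gene, had intron 1 (3371 nt) at 1.89 and 4.35 in NI_KD, 86.2 and 85.3 in shSCR, 4.76 and 2.97 in NI_OE and 81.7 and 78.5 in Empty. Downstream junction reads were 0 in both NI_KD libraries and 624 and 571 in shSCR, upstream reads 1 and 4, and 0 and 0, and the gene rose by 3.31 ± 0.22 on the log2 scale. *Lima1*, an actin-binding protein gene, fell at intron 3 (6833 nt) from 96.6 and 98.2 in NI_KD to 44.1 and 28 in shSCR, with 1 upstream and 15463 downstream reads in all libraries. *Ubtf*, a factor of RNA polymerase I, rose at intron 1 from 45.6 in both NI_KD libraries to 78.1 and 81.1 with 18 and 3509 such reads. *Cdk5rap1* intron 7 (6346 nt) was at 0 to 6.49 in the NI libraries and the knockdown dataset and at 50.7, 40.1, 44.3 and 38.7 in Empty and T7-TIA1, with reads at both junctions but 38 upstream against 358 downstream. *Fmn1*, a formin gene, had 2701 upstream reads and 1 downstream read at intron 14, at 30 and 38 in NI_KD and 59.2 and 75.5 in shSCR. Of the introns higher by the PSI rule, 17.5% had reads at 1 end in shSCR, 34.7% in Empty, 36% in shCPSF3, 28.6% in shUL1 and 38.5% in T7-TIA1. Of the lower introns it was 37%, 22%, 24.9%, 29.5% and 23.4%. The share was 16.9% among long introns with a median PSI of at least 10 and 4.96% among all long introns, of which 34.7% had too few reads (under 18) to be sorted. Among the 513 introns higher in shSCR, 423 had reads at both ends, and in 254 the authors' balance test of junction and mid-intron reads was at 0.05 or above in all libraries compared.

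**Figure D4:**
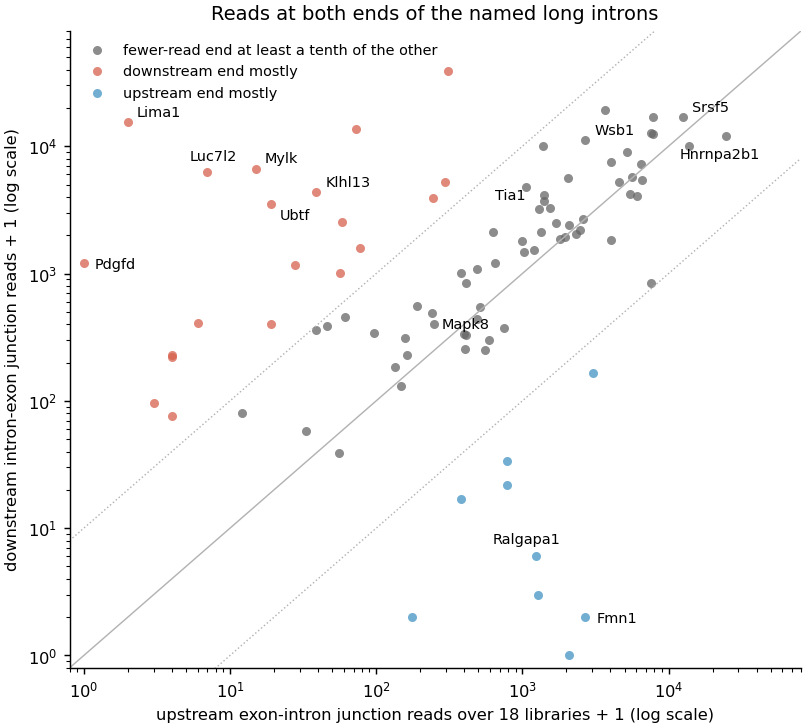
Reads over the upstream (x axis) and downstream (y axis) exon-intron junction of the named introns, summed over 18 libraries plus 1, on log axes. Dotted lines mark a 10 times excess at 1 end. Lima1, Klhl13 and Luc7l2 lie far above the upper line, Fmn1 and Ralgapa1 below the lower one, and Hnrnpa2b1, Srsf5 and Mapk8 lie between the lines.

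Host gene expression could be set beside retention for 56090 introns in 8398 genes of the knockdown dataset and 56620 in 8485 genes of the overexpression dataset. The median PSI was lowest in the most strongly expressed genes. In 5 classes of equal size by host level per kb of transcript in the knockdown dataset, from a median of 2.92 to 33.2 scaled CPM per kb, the median PSI was 0.583, 0.611, 0.572, 0.533 and 0.36, and 4.73% of introns in the lowest and 2.13% in the highest class were at 10 or above. In the overexpression dataset it was 0.503, 0.56, 0.513, 0.471 and 0.325. Across introns, which are not independent and share genes and libraries, Spearman's rho was -0.071 (n = 56090) and -0.05 (n = 56620).

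Between conditions, the change in PSI of an intron said little about the change of its host. Pearson's r between the difference in PSI and the log2 change of the host was -0.011 for shSCR, -0.028 for Empty, -0.045 for shCPSF3, -0.034 for shUL1 and -0.039 for T7-TIA1, and Spearman's rho -0.035, -0.026, -0.088, -0.065 and -0.027. Of the host genes, 3692 (44%) changed in shSCR, 3974 (46.8%) in Empty, 2141 (25.5%) in shCPSF3, 864 (10.3%) in shUL1 and 0 in T7-TIA1 (limma adjusted p below 0.05), against 44.5%, 46.5%, 26.1%, 10.5% and 0% of all genes in the tables. The knockdown counts depended on the fit. With only the groups compared they were 290 for shCPSF3 and 111 for shUL1, and with a replicate block 4174 and 2477. For T7-TIA1, 354 host genes had an unadjusted p below 0.05 and the smallest adjusted p was 0.222, a value that *Tia1* itself had. The count of 0 thus misses the overexpressed gene. Of the 437 introns higher in shSCR by the PSI rule whose host was listed, 32.3% had a host that rose and 16% one that fell, against 21.9% and 21.7% over all long introns. Of the 107 lower introns, 44.9% had a host that rose and 10.3% one that fell.

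The read-level effect gave another picture. Its r with the host change was -0.4 for shSCR, -0.34 for Empty, -0.4 for shCPSF3, -0.3 for shUL1 and -0.19 for T7-TIA1. In shSCR, 40.5% of 1413 introns called higher had a host that fell and 10.7% one that rose, against 21.5% and 21.2% of the introns tested. Of 178 introns called lower, 6.74% had a host that fell and 58.4% one that rose. In shCPSF3, 37.2% of the 492 lower introns had a host that rose, against 15%. In 4 of the comparisons this relation went with the number of reads behind an intron. In shSCR the r was -0.56 for introns with a mean of under 2 inclusion reads a library, -0.45 from 2 to 5, -0.36 from 5 to 10, -0.24 from 10 to 20 and -0.14 from 20 upwards. In shCPSF3 the same classes gave -0.51, -0.42, -0.38, -0.31 and -0.22, in Empty -0.51, -0.38, -0.28, -0.17 and -0.11, and in shUL1 -0.41, -0.31, -0.27, -0.19 and -0.13. In T7-TIA1 they lay close together, at -0.21, -0.18, -0.17, -0.16 and -0.17. The ratio holds 1 added read in both counts, so that with no or few inclusion reads it falls as spliced reads rise, by its construction. The median shSCR effect itself went the other way, 0.24 in the class with the fewest and 0.51 in that with the most inclusion reads, and 644 of 3608 introns in the latter (17.8%) were called higher. Of the 632 of these with a listed host, 32% had a host that fell and 15.8% one that rose, against 21.7% and 21.1% of all tested introns of that class.

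**Figure D5:**
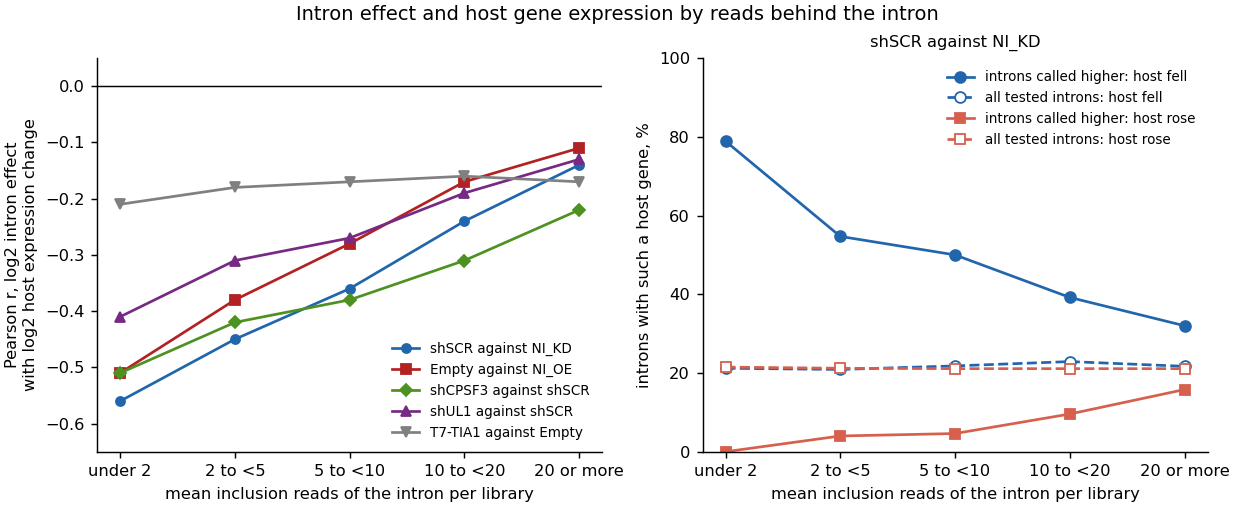
Left, Pearson's r across introns between the log2 read-level effect and the log2 change of the host gene, by class of mean inclusion reads a library, for the 5 comparisons. Right, percent of introns called higher in shSCR whose host gene fell or rose, beside all tested introns, by the same classes. The r for shSCR goes from -0.56 to -0.14 and the share of falling hosts from 78.9% to 32%.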

How the data were processed

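The authors sequenced stranded polyA libraries and ran *vast-tools* with its setting for stranded reads. The deposited splicing table holds PSI in percent and, per event, a quality field of corrected read numbers. They also deposited 2 expression tables of normalised signal per gene, read as CPM scaled between libraries. The submitters' processing notes name STAR 2.7.1a and edgeR 3.16.5. Coordinates are mm10. Introns were kept by event type, length above 1000 nt and a score other than N in all 18 libraries. The members and the gene lists were chosen with earlier results of these data known.

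Group means of PSI were compared by the rule of the study. For reads, log2 of inclusion plus 1 over exclusion plus 1 was fitted with limma 3.58.1 (R 4.3.3) over all 9 groups, with weights from the counting variance plus 0.1, for 142476 events with at least 18 inclusion and 18 exclusion reads summed over the 18 libraries. Gene signal was fitted with limma on log2(value + 1), within each dataset since these were normalised separately, so its fold changes understate those of low genes. P-values were adjusted by Benjamini-Hochberg over all events or genes, with a threshold of 0.05.

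Named introns were the 4 largest rises and falls past the PSI rule without overlap and up to 3 with the smallest p in each direction per comparison, the 3 most retained and the 3 longest with a median PSI of at least 10, those of *Cpsf3*, *Hnrnpul1*, *Tia1* and *Tial1*, and list members past the rule. Others are named where a test of a difference called them. Values of 1 gene are not reported here, though its introns stay in the counts. Annotation came from GENCODE, and splice site sequence from transcripts that keep the intron. Alternatives were the score, the PSI limits, junction balance, the libraries and groups fitted, a replicate block, the pseudocounts and filters, and a centring of each library that was chosen after seeing the data.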

Additional observations from a re-analysis of the deposited data

Results flagged for a closer look

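The change from day 0 to the day 12 control was compared between the datasets (shSCR against NI_KD, and Empty against NI_OE), which differ in vector and have separate day 0 groups. The test of the difference (limma on the read-level log2 ratios, adjusted over all events) called 10 long introns, against 0.0232% of all events, with 3085 at an unadjusted p below 0.05. None of the 10 had a 10 times excess at 1 junction over all libraries, and those given here are named because this test called them.

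The largest differences in PSI were in *Wsb1* and *Zfp101*. *Wsb1* intron 5 went from 21.2 and 23.6 to 68.4 and 68.5 in the knockdown dataset and from 34.4 and 51.3 to 39.7 and 34 in the other, a log2 difference of 3.25 ± 0.41 (limma adjusted p = 0.0138). In the 2 shSCR libraries its reads were 92 and 113 upstream against 954 and 967 downstream, and in NI_KD 119 and 136 against 306 and 383. Spliced reads were 242 and 248 in shSCR and 788 and 841 in NI_KD. *Zfp101* intron 3, in a zinc finger gene, went from 90.4 and 84.3 to 51.2 and 46, and from 68.8 and 70 to 72.3 and 77.8, a difference of -3.20 ± 0.51 (limma adjusted p = 0.0269). In both introns the 2 NI_OE libraries lay between NI_KD and shSCR.

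Genes of RNA-binding proteins were among the 10. *Srsf5* intron 6 went from 10.2 and 8.9 to 24.5 and 20, and from 16.8 and 16.7 to 10.1 and 11.1 (2.2 ± 0.36, limma adjusted p = 0.0276). *Rbm17*, a U2-associated factor gene, had intron 8 at 2.04 and 1.66, then 6.04 and 6.46, and at 4.06 and 4.21, then 3.51 and 3.07 (2.11 ± 0.37, limma adjusted p = 0.0498).

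The remaining introns given here were at low PSI. The log2 difference was 2.55 ± 0.37 for *Dnajc7* intron 4, 3.07 ± 0.49 for *Supt20* intron 14 and 2.26 ± 0.40 for *Dcun1d5* intron 7, and their limma adjusted p was 0.0195, 0.0269 and 0.0486. It was 3.58 ± 0.62 for *Abce1* intron 16 and 2.50 ± 0.44 for *Nptn* intron 3 (limma adjusted p = 0.0439 and 0.0497). *Abce1* was at 0.75 and 0.87 in NI_KD, 1.7 and 1.93 in shSCR, 3.35 and 1.42 in NI_OE, and 0.43 and 0.36 in Empty. The non-infected day 0 groups differed as well, without overlap. In NI_KD and NI_OE, *Dnajc7* was at 2.27 and 2.38, and 5.92 and 5.3, and *Supt20* at 1.29 and 1.86, and 7.19 and 6.29. *Dcun1d5* was at 1.8 and 2.35, and 3.33 and 2.81, and *Nptn* at 0.63 and 0.64, and 1.05 and 0.98. What sets the datasets apart was not tested.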

How the results depend on the processing

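Among counts by the PSI rule, a minimum of 15 PSI gave 285 introns in shSCR, 132 in Empty, 91 in shCPSF3, 58 in shUL1 and 32 in T7-TIA1, in place of 640, 285, 247, 195 and 99. Keeping only introns with balanced junctions gave 297, 109, 83, 61 and 35. With 1 library a group (without replicate 1 or 2) the counts were 901 to 977, 473 to 910, 358 to 522, 274 to 434 and 253 to 432. Calling introns directly against shSCR gave 147 for shCPSF3 and 107 for shUL1.

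On reads, the counts of 1664 in shSCR, 251 in Empty, 578 in shCPSF3, 175 in shUL1 and 8 in T7-TIA1 became 1090, 127, 318, 69 and 3 with balanced junctions. Fitting only the groups compared, with fewer residual degrees of freedom, gave 1012 for shSCR, 26 for Empty and 5 for T7-TIA1, and fitting only its own dataset gave 106 for Empty. PSI in percent gave 57 for Empty, with 25 higher and 32 lower, and 4 for T7-TIA1, with 3 higher and 1 lower. Leaving out 1 library at a time gave 327 to 914, 32 to 603, 103 to 577, 16 to 115 and 6 to 8.

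For host genes, the 3692 in shSCR, 3974 in Empty, 2141 in shCPSF3 and 864 in shUL1 became 2269 to 2969, 1340 to 5388, 498 to 2841 and 123 to 633 when 1 library was left out. Fitting only the groups compared gave 290 for shCPSF3, 111 for shUL1 and 2, in place of 0, for T7-TIA1.

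Replicate numbers were not taken to pair the samples, since the labels give no shared origin for a number and a group has only 2. Libraries of the same number deviated from their group means with an r of 0.09 to 0.19 between day 12 groups of the knockdown dataset, of 0.14 between Empty and T7-TIA1, and of -0.03 to 0.02 where day 0 was involved. With the replicate block, the read-level test called 2134, 483, 909, 311 and 8 introns in the order above, and the expression test 4963, 3973, 4174, 2477 and 0 host genes.

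The r between the PSI difference and the host change kept its sign under all alternatives. For introns with a mean PSI of at least 5 it was -0.031 in shSCR, -0.054 in Empty, -0.07 in shCPSF3 and -0.11 in T7-TIA1. For the read-level effect it was -0.4, -0.34, -0.4, -0.3 and -0.19, and with at least 20 inclusion reads -0.14, -0.11, -0.22, -0.13 and -0.17. With score LOW or better it was -0.0086 in shSCR. Without replicate 1 or 2 it was -0.012 to -0.0093, -0.034 to -0.019, -0.046 to -0.025, -0.034 to -0.022 and -0.021 to -0.0016. The cause of these shifts was not tested.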
